A study of Homo sapiens with 8 samples.

Results

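The genes described here are 33 genes of cholesterol and fatty acid synthesis, a list drawn up from what is known of the sterol regulatory element binding proteins (SREBPs). Of these, 32 were found by symbol among the 57736 gene identifiers of the deposited files. ACACA, acetyl-CoA carboxylase, matched no identifier in the tables used, so its expression is not analysed here. The list has a sterol branch of 21 genes and a fatty acid branch of 12, of which 11 were found. RNA was measured in 8 libraries from derivatives of LS174T, an established line from a human colon adenocarcinoma, that carry the Tet repressor. One derivative makes, on doxycycline, a short hairpin RNA directed at ASCL2, which encodes an intestinal stem cell transcription factor. The other makes one directed at the long non-coding RNA WiNTRLINC1, whose own level was not analysed here, so its knockdown was not checked. The 4 groups were untreated cells and cells grown for 3 days with doxycycline at 1 ug/ml, in each line, with 2 libraries per group. Groups follow the sample titles, because the genotype field of all 8 samples names the opposite target. Positive clones of the WiNTRLINC1 hairpin line were picked by RT-PCR. None of the groups analysed here received the drug without a hairpin, so the effects of drug and hairpin cannot be told apart.

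Cells make cholesterol from acetyl-CoA through the mevalonate pathway, squalene and a series of sterol intermediates. Fatty acids start from the same acetyl-CoA, which acetyl-CoA carboxylase and fatty acid synthase build into palmitate for later elongation and desaturation. SREBF2 encodes the SREBP that mainly drives sterol genes, and SREBF1 the SREBPs that mainly drive fatty acid genes. When membrane sterol is low, SREBPs leave the endoplasmic reticulum, are cut in the Golgi and enter the nucleus, while INSIG1 and its relatives hold them back when sterol is plentiful. Proliferating epithelium and colon tumours use both routes to build membranes.

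Deposited totals ran from 21524463 to 22941231 per library, and 31503 to 33959 genes were above 0 in each. The values have the form of read counts scaled per library and rounded before deposit, so the read depth behind them is not known exactly. All 32 members reached 10 in 2 or more libraries, the filter used, as did 22100 genes in all. ASCL2 was at 2855 and 3373 untreated and 532 and 586 treated in its own line, and at 2540 and 2034 untreated and 805 and 697 treated in the WiNTRLINC1 line. It was therefore lower with doxycycline in both lines, and does not settle which label of the samples is right. All 11 colon epithelium markers were expressed, with a summed value of 209841 to 236066 untreated and 212042 to 233942 treated in the ASCL2 line. Most of that sum is KRT8 and KRT18. Singly, 6 of the 11 were called lower there (CDH17, CDX2, KRT20, CDX1, VIL1 and LGALS4), against 12.7% of all genes tested. The 1 called higher (KRT19) is near the share over all genes, 13.9%. The summed value was, for the WiNTRLINC1 line, 140917 to 148037 untreated and 119486 to 119925 treated, and 104729 to 109060 against 111728 to 111752 with KRT18 left out. There 3 markers were called lower (KRT18, CDX2 and CDH1) and 3 higher (KRT19, KRT20 and CDH17), against 9.03% and 9.54% of all genes tested. The part of these shifts in the results below was not tested. Summed values of fibroblast, immune, endothelial, hepatocyte and adipocyte markers were at most 304 in any library, and none of these lists had a member at 0 in all 8 libraries. In bulk RNA, fewer cells of a type and less RNA per cell cannot be told apart.

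Promoter windows of 300 bases, 250 before and 50 from the start site, were taken from the RefSeq table on GRCh38.p14, which held 29 of the 33 members. ACAT2, FDFT1, SQLE and FASN were not searched. The 11 fatty acid genes with windows include ACACA and leave out FASN. The windows were searched on both strands for TCACNCCAC (a core of the sterol regulatory element), CCAAT (the box bound by NF-Y, a partner of SREBPs), GGGCGG (the GC box) and CACGTG (an E-box). A gene counted as holding a motif if any of its windows did, so genes with several windows had more chances of a match. The 29 members had 41 windows, and the whole table held 35116. The CCAAT box was present for 16 of 18 sterol branch genes and 7 of 11 fatty acid genes, against 39.7% of the 27305 genes in the table. The GC box was present for 17 of 18 and 10 of 11, against 48.3%. The strict sterol element core occurred in SREBF2 and MID1IP1 alone among the members searched, against 1.39% of all genes. The E-box occurred in INSIG1, LSS, SC5D and ELOVL5, against 8.77%. A match is a description of the letters and not a bound site.

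Shown here are the windows of HMGCS1, whose rise in the ASCL2 line was the largest of the members, of MVD, MSMO1 and INSIG1, whose responses differed between the lines, and of SREBF2 and MID1IP1, which hold the sterol element core. HMGCS1 lies at chr5:43313363-43313662, minus strand, and a start site further downstream in the table had no CCAAT box in its window. MVD lies at chr16:88663042-88663341, minus strand, MSMO1 at chr4:165327419-165327718, plus strand and INSIG1 at chr7:155297628-155297927, plus strand. SREBF2 lies at chr22:41832855-41833154, plus strand, and MID1IP1 at chrX:38801209-38801508, plus strand. Each sequence runs 5′ to 3′ along the gene. Capitals mark CCAAT boxes and sterol element cores on either strand, so that ATTGG is a CCAAT box and GTGGGGTGA a sterol element core read on the opposite strand.
HMGCS1: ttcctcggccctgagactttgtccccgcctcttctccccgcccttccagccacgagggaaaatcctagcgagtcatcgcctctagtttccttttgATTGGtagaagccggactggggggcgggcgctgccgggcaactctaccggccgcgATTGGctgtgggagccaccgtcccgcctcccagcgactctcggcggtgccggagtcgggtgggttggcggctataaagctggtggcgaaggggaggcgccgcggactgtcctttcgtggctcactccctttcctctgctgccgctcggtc
MVD: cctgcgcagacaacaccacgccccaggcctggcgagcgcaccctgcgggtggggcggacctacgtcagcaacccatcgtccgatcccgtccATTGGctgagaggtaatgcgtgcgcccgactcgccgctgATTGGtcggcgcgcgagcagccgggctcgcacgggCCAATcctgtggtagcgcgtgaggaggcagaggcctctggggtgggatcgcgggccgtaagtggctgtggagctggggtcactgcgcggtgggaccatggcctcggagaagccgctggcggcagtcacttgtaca
MSMO1: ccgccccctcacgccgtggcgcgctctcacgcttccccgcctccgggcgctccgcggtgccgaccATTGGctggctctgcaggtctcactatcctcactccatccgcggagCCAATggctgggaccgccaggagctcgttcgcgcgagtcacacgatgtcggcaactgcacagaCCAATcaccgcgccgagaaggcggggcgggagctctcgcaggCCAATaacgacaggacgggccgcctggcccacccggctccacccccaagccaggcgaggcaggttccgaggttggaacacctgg
INSIG1: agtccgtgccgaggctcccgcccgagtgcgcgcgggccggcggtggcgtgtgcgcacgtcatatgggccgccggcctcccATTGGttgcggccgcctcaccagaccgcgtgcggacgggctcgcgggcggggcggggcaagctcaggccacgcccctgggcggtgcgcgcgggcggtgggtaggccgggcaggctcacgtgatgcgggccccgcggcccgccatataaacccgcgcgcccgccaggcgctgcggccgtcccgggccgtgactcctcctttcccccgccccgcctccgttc
SREBF2: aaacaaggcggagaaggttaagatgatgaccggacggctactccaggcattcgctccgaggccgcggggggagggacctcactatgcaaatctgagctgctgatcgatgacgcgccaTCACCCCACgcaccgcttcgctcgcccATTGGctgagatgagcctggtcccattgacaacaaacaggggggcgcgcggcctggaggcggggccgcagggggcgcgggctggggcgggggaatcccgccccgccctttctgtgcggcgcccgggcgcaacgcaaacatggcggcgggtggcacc
MID1IP1: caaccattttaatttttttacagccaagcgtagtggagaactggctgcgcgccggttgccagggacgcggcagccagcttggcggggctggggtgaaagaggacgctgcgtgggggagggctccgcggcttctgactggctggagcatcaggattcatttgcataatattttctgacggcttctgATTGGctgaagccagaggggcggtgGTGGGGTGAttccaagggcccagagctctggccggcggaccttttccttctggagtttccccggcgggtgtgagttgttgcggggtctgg
MSMO1 holds 4 CCAAT boxes, MVD 3 and HMGCS1 2 in the window shown, and the other windows shown hold 1 each. In SREBF2 the sterol element core starts 133 bases before the start site and the CCAAT box 106 bases before it. In MID1IP1 these distances are 40 and 65 bases.

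Sterol and fatty acid genes mostly rose with doxycycline in both lines. In the ASCL2 line 22 of 32 members were called (26.6% of all genes tested were), 19 of them higher (13.9%) and 3 lower (12.7%), by limma with a Benjamini-Hochberg adjusted p below 0.05. The WiNTRLINC1 line had 26 called (18.6% of all genes), 24 higher (9.54%) and 2 lower (9.03%). The median log2 fold change of the members was 0.35 and 0.55, against 0.01 over all genes tested in either line. Both treated libraries lay above both untreated ones for 22 members in the ASCL2 line (30.8% of all genes) and 25 in the WiNTRLINC1 line (28.2%). They lay below for 6 (29.8%) and 4 members (26.5%). There were 15 members called higher in both lines (4.19% of all genes), 10 of the sterol branch and 5 of the fatty acid branch, and 0 called lower in both (2.95%). The test shares its estimate of spread among genes of similar level, and without that mean-variance trend 15 and 19 members were called in place of 22 and 26. These 2 comparisons use separate control libraries. All fold changes are on the log2(value + 1) scale. The labels do not say that replicates were separate cultures, so p-values measure the spread between these libraries, which may be technical.

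**Figure D1:**
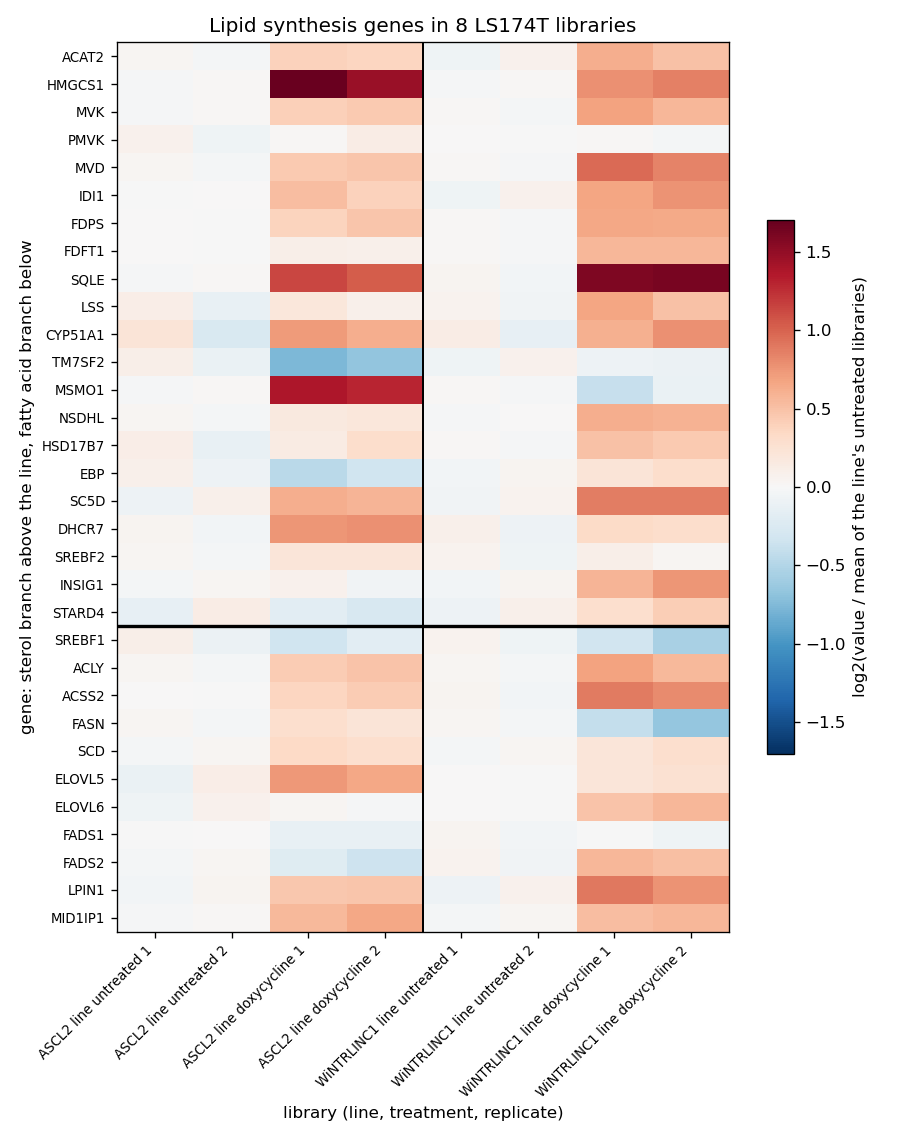
Each cell is the log2 ratio of a gene's deposited value in 1 library (columns) to the mean of the 2 untreated libraries of the same line. Genes (rows) are in pathway order. Most rows turn red in the 4 doxycycline libraries, while TM7SF2 and EBP are among those that turn blue in the ASCL2 line, FASN turns blue in the WiNTRLINC1 line, and SREBF1 in both.

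Of the 7 enzymes that lead from acetyl-CoA to farnesyl diphosphate, all but PMVK rose in both lines. HMGCS1 (ENSG00000112972, chromosome 5), which condenses acetyl-CoA and acetoacetyl-CoA into HMG-CoA, was at 5901 and 6103 in untreated ASCL2 line libraries and at 19264 and 16575 in treated ones. Libraries of the WiNTRLINC1 line were at 5350 and 5525 untreated and at 9354 and 9884 treated. The untreated libraries of the lines were thus close to each other, and the treated ones stood well apart. With the ASCL2 hairpin the rise was 2.98-fold (log2 fold change 1.57 ± 0.0786 SE, limma adjusted p = 5.48e-09, n = 2 per group) and with the other hairpin 1.77-fold (0.82 ± 0.0786, adjusted p = 4.12e-06). 

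MVD, which makes isopentenyl diphosphate by decarboxylation, was at 1842 and 1767 untreated and 2460 and 2494 treated in the ASCL2 line. MVD in the WiNTRLINC1 line went from 1429 and 1393 to 2748 and 2538, so that its treated libraries reached the highest values of the 8. These are rises of 1.37-fold (adjusted p = 0.000443) and 1.87-fold (adjusted p = 1.16e-06). ACAT2 makes acetoacetyl-CoA, MVK is mevalonate kinase, IDI1 isomerises isopentenyl diphosphate and FDPS makes farnesyl diphosphate. In the ASCL2 line these 4 rose by 0.38 to 0.45 on the log2 scale, and in the WiNTRLINC1 line by 0.56 to 0.72. The largest adjusted p of the 8 calls was 0.00227, for ACAT2 in the ASCL2 line, which rose to 0.0502 without the mean-variance trend. PMVK, phosphomevalonate kinase, stood at 2351 and 2116 untreated and 2263 and 2441 treated in the ASCL2 line, and between 1222 and 1268 in all libraries of the other. Its log2 fold changes were 0.08 (95% interval -0.10 to 0.25) and 0.00 (-0.18 to 0.17).

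Some of these genes have near-identical copies that may share reads, and IDI1 and FDPS are uncertain for that reason. FDPSP1, a FDPS pseudogene, had values from 497 to 1406 and log2 fold changes of 0.70 and 0.93, beside 0.43 and 0.66 for FDPS itself. ACAT2 overlaps the opposite-strand gene TCP1 over 397 exonic bases and shares more of its exons with other opposite-strand genes that are not analysed here, and whether reads were counted by strand is not stated in the notes used here. The log2 fold changes of TCP1 were -0.11 and 0.03, neither of them called.

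From squalene to cholesterol, 5 of 11 enzymes were up (13.9% of all genes were) and 2 down (12.7%) in the ASCL2 line, while 9 were up (9.54%) and 0 down (9.03%) in the other. SQLE (ENSG00000104549, chromosome 8), squalene epoxidase, was at 1823 and 1887 untreated and 4092 and 3794 treated in the ASCL2 line. Libraries of the WiNTRLINC1 line were at 1155 and 1081 untreated and 3371 and 3409 treated. All treated libraries lay above all untreated ones, and the rise was 2.12-fold (adjusted p = 1.55e-07) and 3.03-fold (adjusted p = 9.52e-09). SC5D, the sterol C5 desaturase, rose 1.51-fold and 1.83-fold, from between 770 and 1378 to between 1468 and 1997 over both lines (adjusted p = 0.000132 and 5.56e-06).

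MSMO1 (ENSG00000052802, chromosome 4), the oxidase that starts removal of the sterol C4 methyl groups, behaved differently in the lines. It was at 1768 and 1804 untreated and 4617 and 4382 treated in the ASCL2 line, a 2.52-fold rise (log2 fold change 1.33 ± 0.0921 SE, adjusted p = 1.38e-07). MSMO1 in the WiNTRLINC1 line was at 838 and 821 untreated and 633 and 764 treated. There both treated libraries lay below both untreated ones, but the log2 fold change of -0.25 ± 0.0921 did not pass (adjusted p = 0.071). Without the second treated library of that line the value was -0.39 and passed (adjusted p = 0.0221). NSDHL and HSD17B7 act on the same C4 methyl groups. In the ASCL2 line neither passed, at 0.18 and 0.22 on the log2 scale, and in the WiNTRLINC1 line NSDHL rose by 0.60 (adjusted p = 0.000102) and HSD17B7 by 0.47 (adjusted p = 0.0115). For HSD17B7 the call did not survive leaving out the second untreated library or either treated one of that line (adjusted p = 0.0626, 0.0731 and 0.0548), and this gene also has pseudogenes that may share reads.

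TM7SF2, a sterol C14 reductase, fell in the ASCL2 line from 1693 and 1455 to 923 and 987, or 1.64-fold (adjusted p = 8.3e-05). Libraries of the other line lay between 664 and 751 (log2 fold change -0.10, 95% interval -0.31 to 0.12). EBP, the sterol isomerase that acts before SC5D, moved in opposite directions. It fell from 3071 and 2713 to 2099 and 2282 in the ASCL2 line (log2 fold change -0.40, adjusted p = 0.00231, and 0.056 without the mean-variance trend), and rose from 2575 and 2725 to 3074 and 3252 in the WiNTRLINC1 line (0.26, adjusted p = 0.0439). That rise was not called without any 1 of the 4 libraries of the line (adjusted p = 0.0766 to 0.243), nor without either treated ASCL2 line library (0.0549 and 0.0548).

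DHCR7 (ENSG00000172893, chromosome 11), which makes cholesterol from 7-dehydrocholesterol in the last step, rose from 5588 and 5260 to 9151 and 9272 in the ASCL2 line (1.7-fold, adjusted p = 3.48e-06). DHCR7 in the WiNTRLINC1 line went from 4508 and 4001 to 5312 and 5212 (1.24-fold, adjusted p = 0.00916), a call lost without the second untreated library (0.0979) or without the first or second treated one (0.0698 and 0.0531). FDFT1, squalene synthase, and LSS, lanosterol synthase, were called in the WiNTRLINC1 line alone. FDFT1 was at 12915 and 12879 untreated and 13812 and 13639 treated in the ASCL2 line, and at 10156 and 9852 untreated and 14856 and 14852 treated in the WiNTRLINC1 line. Their log2 fold changes there were 0.57 and 0.58 (adjusted p = 2.27e-05 and 0.000338), against 0.09 and 0.15 in the ASCL2 line.

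CYP51A1, the sterol C14 demethylase, had the lowest values of the list, from 45 to 271, below its pseudogenes CYP51A1P2 (427 to 814) and CYP51A1P1 (176 to 373). Reads of the gene may have been split among copies, and 79.4% of its exonic bases are shared with another annotated gene on the same strand, so its level is uncertain. It rose by 0.69 on the log2 scale in both lines (adjusted p = 0.0207 and 0.028), and the calls were lost without the second untreated library (0.193) or either treated library (0.123 and 0.0801) of the ASCL2 line. Calls in the WiNTRLINC1 line were lost without the second untreated library (0.159) or either treated one (0.0612 and 0.161). CYP51A1P2 had log2 fold changes of 0.79 and 0.78.

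Of the 3 regulators and transfer proteins of the sterol branch, SREBF2 rose in the ASCL2 line, and INSIG1 and STARD4 rose in the other. INSIG1 (ENSG00000186480, chromosome 7), which retains SREBPs in the endoplasmic reticulum and is itself an SREBP target, was at 3906 and 4060 untreated and 4173 and 3823 treated in the ASCL2 line, where the groups overlap. INSIG1 in the WiNTRLINC1 line was at 2397 and 2548 untreated and 3703 and 4158 treated. The second treated library there lay within the range of the ASCL2 line, and the first just below it. The log2 fold changes were 0.00 (95% interval -0.17 to 0.18) and 0.67 (0.50 to 0.84, adjusted p = 3.46e-05). SREBF2 was at 11136 and 10719 untreated and 12585 and 12655 treated in the ASCL2 line, a 1.16-fold rise (adjusted p = 0.0428). Over 18 alternatives its adjusted p ran from 0.0326 to 0.177, and it was not called in 12 of them, among which were those leaving out any 1 library of the line or either treated WiNTRLINC1 line library. SREBF2 in the WiNTRLINC1 line stayed between 9717 and 10956 with overlapping groups (log2 fold change 0.07). STARD4, which carries cholesterol between membranes, had a log2 fold change of -0.23 in the ASCL2 line (adjusted p = 0.12), called at -0.35 without the first untreated library (adjusted p = 0.0421). With the WiNTRLINC1 hairpin it rose by 0.35 (adjusted p = 0.0243), which was not called without the first untreated library (0.183) or either treated one (0.0502 and 0.189).

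**Figure D2:**
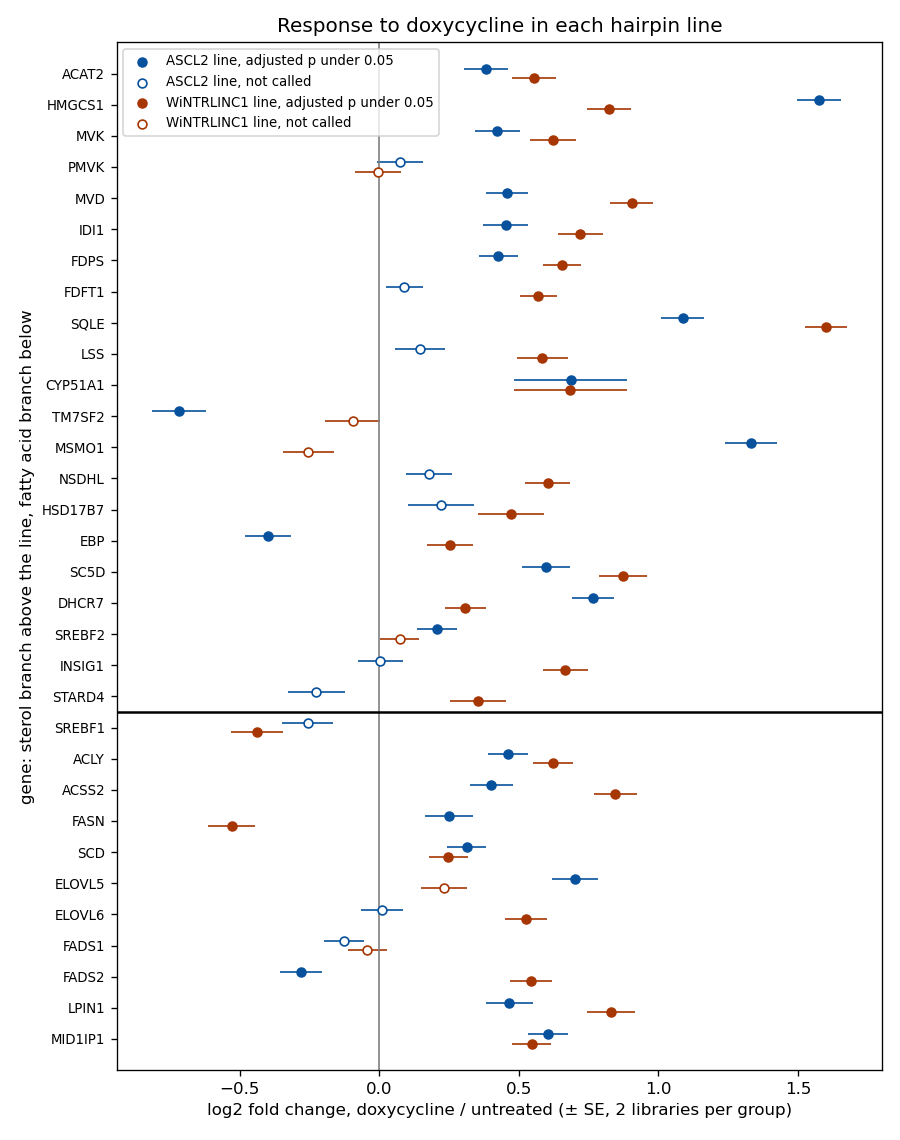
Points are log2 fold changes (doxycycline over untreated, horizontal axis) of each gene, with bars of 1 SE from the fit over 8 libraries. Filled points passed an adjusted p under 0.05. SQLE and HMGCS1 lie farthest right, and MSMO1, FASN, FADS2, EBP and STARD4 are among the genes with the lines on opposite sides of 0, though MSMO1 in the WiNTRLINC1 line and STARD4 in the ASCL2 line did not pass.

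In the fatty acid branch each line had 7 of 11 genes higher, against 13.9% of all genes in the ASCL2 line and 9.54% in the other. The 1 lower in the ASCL2 line and 2 lower in the other are near the share over all genes (12.7% and 9.03%). ACLY, which makes cytosolic acetyl-CoA from citrate, rose 1.38-fold and 1.54-fold (adjusted p = 0.00026 and 2.51e-05). ACSS2, which makes acetyl-CoA from acetate, was at 2154 and 2143 untreated and 2772 and 2908 treated in the ASCL2 line. Libraries of the WiNTRLINC1 line were at 1136 and 1059 untreated and 2021 and 1922 treated. The groups did not overlap in either line, and the rises were 1.32-fold (adjusted p = 0.0013) and 1.8-fold (adjusted p = 2.64e-06).

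FASN (ENSG00000169710, chromosome 17), the synthase that makes palmitate, was at 30955 and 29368 untreated and 36749 and 35000 treated in the ASCL2 line. FASN in the WiNTRLINC1 line was at 30562 and 28943 untreated and 22503 and 18910 treated. Untreated libraries of both lines lay in the same range, while treated ones were above it in the ASCL2 line and below it in the other. The fall in the WiNTRLINC1 line was 1.44-fold (log2 fold change -0.53 ± 0.0850 SE, adjusted p = 0.000461). The rise in the ASCL2 line was 1.19-fold (0.25 ± 0.0850, adjusted p = 0.0414). It was not called in 9 of 18 alternatives (adjusted p from 0.0221 to 0.195), including each that left out 1 of the 4 libraries of that line.

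Among desaturases and elongases, SCD (ENSG00000099194, chromosome 10), which puts the first double bond into stearate and palmitate, rose from 26967 and 28459 to 35151 and 33678 in the ASCL2 line. SCD in the WiNTRLINC1 line rose from 4961 and 5194 to 5859 and 6194. The increases were 1.24-fold (adjusted p = 0.00401, and 0.0629 without the mean-variance trend) and 1.19-fold (adjusted p = 0.0228), on levels that differed far more between the lines than with doxycycline. The second call was lost without the first untreated library (0.13) or either treated library (0.0594 and 0.185) of the WiNTRLINC1 line. The pseudogene SCDP1, which may share reads, had log2 fold changes of 0.26 and 0.36.

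ELOVL5, an elongase of polyunsaturated fatty acids, rose 1.63-fold in the ASCL2 line, from 1823 and 2137 to 3304 and 3122 (adjusted p = 2.09e-05). ELOVL5 in the WiNTRLINC1 line went from 3303 and 3255 to 3786 and 3916 (log2 fold change 0.23, adjusted p = 0.0663). It was called in 5 of 18 alternatives, among them the fit of that line alone and those without either untreated ASCL2 line library. ELOVL6, which elongates palmitate, was at 3508 to 3873 in the ASCL2 line with overlapping groups, and rose 1.44-fold in the WiNTRLINC1 line (adjusted p = 0.000171). FADS2, the first desaturase of the polyunsaturated route, fell from 8100 and 8435 to 7145 and 6495 in the ASCL2 line (log2 fold change -0.28, adjusted p = 0.0126). FADS2 in the WiNTRLINC1 line rose from 2998 and 2768 to 4282 and 4114 (0.54, adjusted p = 0.000128). The fall was not called without the second untreated or second treated library of the ASCL2 line (adjusted p = 0.0793 and 0.139). FADS1, its partner desaturase, had log2 fold changes of -0.13 and -0.04, neither called, and overlaps FADS2 on the opposite strand over 490 exonic bases.

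SREBF1 was the only regulator of the list called lower. In the WiNTRLINC1 line it fell from 9890 and 9029 to 7524 and 6478 (1.35-fold, adjusted p = 0.00371), a call lost without the first untreated (0.0509) or second treated library (0.0757). In the ASCL2 line it went from 15076 and 13183 to 11217 and 12424, with both treated libraries below both untreated ones (log2 fold change -0.26, adjusted p = 0.0524). It passed in 6 of 18 alternatives, among them that without the second untreated library, where the value was -0.35. Its exons overlap those of the opposite-strand gene RAI1 over 556 bases. LPIN1, a phosphatidate phosphatase of triglyceride synthesis, rose 1.38-fold and 1.78-fold (adjusted p = 0.000886 and 7.68e-06). MID1IP1, which promotes polymerisation of acetyl-CoA carboxylase, rose from 5955 and 6071 to 8813 and 9477 in the ASCL2 line and from 1696 and 1777 to 2509 and 2561 in the other. These are rises of 1.52-fold and 1.46-fold (adjusted p = 2.09e-05 and 7.18e-05).

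**Figure D3:**
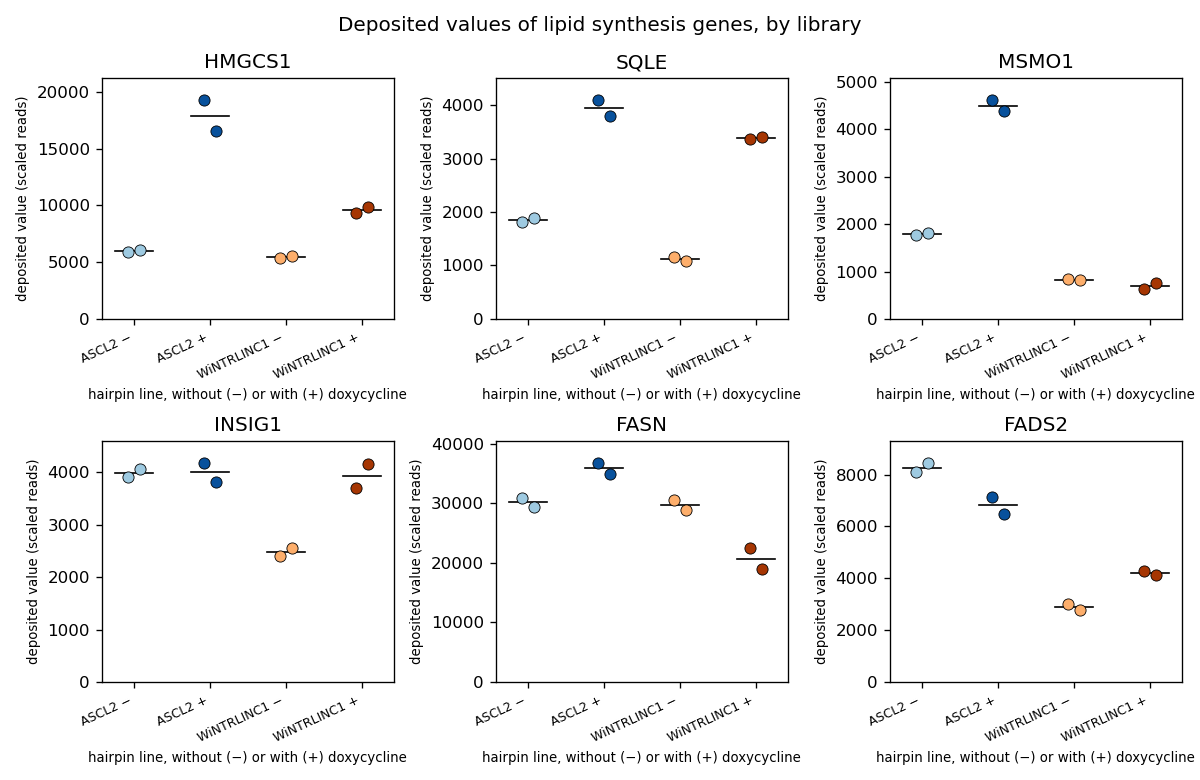
Points are deposited values (vertical axis, starting at 0) of 6 genes in single libraries, with a line at the mean of the 2 libraries of each group. In treated libraries MSMO1 reaches 4617 in the ASCL2 line and at most 764 in the WiNTRLINC1 line, and FASN lies above its untreated libraries in the ASCL2 line and below them in the other.

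Set side by side, the sterol branch had 12 of 21 genes higher and 2 lower in the ASCL2 line, and the fatty acid branch 7 of 11 higher and 1 lower. The median log2 fold changes were 0.38 and 0.31. In the WiNTRLINC1 line the sterol branch had 17 higher and 0 lower, and the fatty acid branch 7 higher and 2 lower, with medians of 0.58 and 0.53. Over all genes, 13.9% were higher and 12.7% lower in the ASCL2 line, and 9.54% and 9.03% in the other. The branches were not tested against each other, because their members were chosen with earlier results known.

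Summed values weight the abundant genes. The sterol branch held 0.327% and 0.329% of the library total in untreated ASCL2 line cells and 0.456% and 0.425% in treated ones, and 0.256% and 0.249% against 0.369% and 0.361% in the WiNTRLINC1 line. Treated libraries were above untreated ones in both lines. The fatty acid branch held 0.481% and 0.491% untreated and 0.559% and 0.531% treated in the ASCL2 line. In the WiNTRLINC1 line its shares overlapped, at 0.307% and 0.294% untreated and 0.313% and 0.283% treated. FASN made up 44.6% and 44.1% of that branch's sum in the untreated WiNTRLINC1 line and 32.7% and 29.9% in the treated one. With FASN left out, the sum there was 0.170% and 0.164% of the library untreated and 0.211% and 0.199% treated, without overlap. No test was run on these sums, because 2 libraries against 2 cannot reach 0.05 in an exact permutation test.

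**Figure D4:**
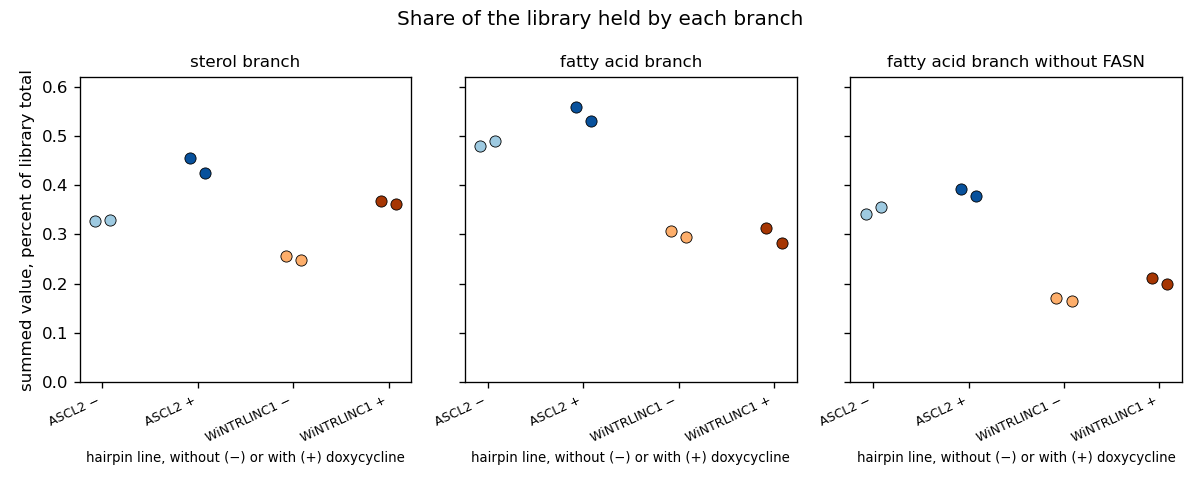
Points are the summed values of a branch as percent of the library total (vertical axis), 1 per library, for the 21 sterol genes, the 11 fatty acid genes and the 10 fatty acid genes other than FASN. The sterol sums of treated libraries lie above the untreated ones in both lines, while the fatty acid sums overlap in the WiNTRLINC1 line until FASN is left out.

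The difference of the responses (WiNTRLINC1 line minus ASCL2 line) was called for 17 of 32 members (15.0% of all genes), 12 with a more positive response in the WiNTRLINC1 line (7.39% of all genes) and 5 with a more positive response in the ASCL2 line (7.60%). MSMO1 differed by -1.59 ± 0.130 on the log2 scale (adjusted p = 1.92e-06), FASN by -0.78 ± 0.120 (adjusted p = 0.000421), HMGCS1 by -0.75 ± 0.111 (adjusted p = 0.000293), ELOVL5 by -0.47 and DHCR7 by -0.46. In the other direction FADS2 differed by 0.82 ± 0.106 (adjusted p = 9.05e-05), INSIG1 by 0.66, EBP by 0.65, TM7SF2 by 0.62, STARD4 by 0.58, ELOVL6 and SQLE by 0.52 and 0.51, and FDFT1 by 0.48. For MVD, ACSS2, LSS and NSDHL the differences were between 0.42 and 0.45. The count depended on the variance model, as 3 members were called without the mean-variance trend (MSMO1, HMGCS1 and FADS2), where 1313 of all genes were called in place of 3314. Among the members with no called difference were ACLY (0.16, 95% interval -0.06 to 0.38), SCD (-0.07, -0.28 to 0.15), MID1IP1 (-0.06, -0.27 to 0.16) and CYP51A1 (0.00, -0.61 to 0.61).

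Some of these calls rested on single libraries. The NSDHL difference was not called without any 1 of 6 libraries (adjusted p from 0.0537 to 0.0747), namely all but the second untreated library of each line. The LSS difference was lost without the first untreated or either treated library of the ASCL2 line, or the second untreated or first treated library of the WiNTRLINC1 line (0.0554 to 0.148). The STARD4 difference was lost without the second untreated or second treated ASCL2 line library, or the first untreated or second treated WiNTRLINC1 line library (0.0584 to 0.0654). Those of ELOVL5 and ACSS2 were lost without the first treated library of either line (0.0583 to 0.0626), ELOVL5 also without the first untreated ASCL2 line library (0.0564), and that of MVD without the first treated WiNTRLINC1 line library (0.0601). The LPIN1 difference of 0.37 (adjusted p = 0.0548) passed in 7 of 17 alternatives. Among them was that without the second untreated library of the WiNTRLINC1 line, where it was 0.45.

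Before doxycycline, lipid synthesis genes were lower in the WiNTRLINC1 line than in the ASCL2 line, with 25 of 32 called (55.2% of all genes were), 23 lower (29.5%) and 2 higher (25.7%). Both WiNTRLINC1 line libraries lay above both ASCL2 line ones for 2 members (35.7% of all genes) and below for 27 (40.0%). All 21 sterol genes had negative values, 15 of them called, with a median of -0.37 against -0.04 over all genes. SCD was 5.46-fold lower (adjusted p = 2.16e-12), MID1IP1 3.46-fold, CYP51A1 3.25-fold, FADS2 2.87-fold, TM7SF2 2.2-fold and MSMO1 2.15-fold. The CYP51A1 difference is uncertain, as reads of that gene may have been split among copies. Its pseudogenes CYP51A1P2 and CYP51A1P1, which had higher values, had log2 fold changes of -0.09 and -0.16, neither called. ELOVL5 was 1.66-fold higher (adjusted p = 2.82e-06) and ACLY 1.22-fold higher (adjusted p = 0.00355). FASN (log2 fold change -0.02, 95% interval -0.20 to 0.16), HMGCS1 (-0.14), SREBF2 (-0.10), FDPS, LSS, NSDHL and EBP were not called. HSD17B7 was 1.25-fold lower (adjusted p = 0.0321), and not called without the first untreated ASCL2 line library (0.234) or either untreated WiNTRLINC1 line library (0.0699 and 0.112). The LSS value of -0.15 was called at -0.28 without the second untreated ASCL2 line library (0.0353).

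**Figure D5:**
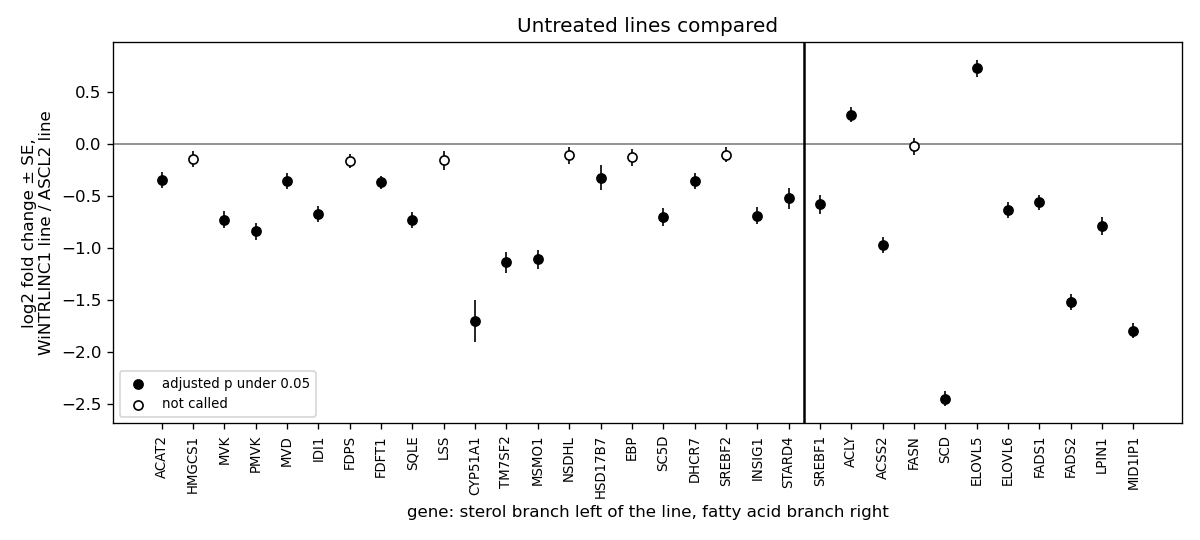
Points are log2 fold changes of untreated WiNTRLINC1 line cells over untreated ASCL2 line cells (vertical axis) with bars of 1 SE, filled where the adjusted p was under 0.05. SCD, MID1IP1 and CYP51A1 lie lowest, followed by FADS2, and ELOVL5 lies highest. The CYP51A1 value is uncertain, because pseudogenes may share its reads.

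Levels of different genes were compared per kilobase of exons in GENCODE 29, as the mean deposited value over 8 libraries. Pooled over the groups, SCD (3410 per kb) and FASN (3110) stood highest, followed by FDFT1 (2470) and HMGCS1 (2070). ACLY was at 1640, SREBF2 and FDPS at 1470 each, DHCR7 at 1450, PMVK at 1380 and SREBF1 at 1320. The lowest were STARD4 (208), LPIN1 (155), HSD17B7 (83.8) and CYP51A1 (38.8). The order differed between groups. SCD led in the ASCL2 line, at 5168 per kb untreated and 6418 treated, but was at 947 and 1124 in the WiNTRLINC1 line. There FASN led untreated (3177, ahead of FDFT1 at 1923), and FDFT1 led treated (2855, ahead of ACLY at 2249 and FASN at 2211). HMGCS1 reached 3811 in treated ASCL2 line cells, above FDFT1 at 2639. The lengths come from a later annotation than the files, and neighbours in this order were not tested against each other.

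Genes around these pathways are given by counts, which with lists this short are read against all genes tested, of which 13.9% were higher and 12.7% lower in the ASCL2 line, and 9.54% and 9.03% in the other. Of 10 genes that process or degrade SREBP regulators, 3 were up and 2 down with the ASCL2 hairpin, and 3 up and 1 down with the WiNTRLINC1 hairpin, a few genes from those shares. ERLIN2, which with its partner directs sterol-dependent degradation in the endoplasmic reticulum, fell by 0.82 on the log2 scale in the ASCL2 line (adjusted p = 2.55e-06) and was at 0.11 in the other. SPRING1, a cofactor of SREBP cleavage, fell by 0.54 in the WiNTRLINC1 line.

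Of 13 tested genes of cholesterol transport and esterification, 6 rose (13.9% and 9.54% of all genes did) and 1 fell (12.7% and 9.03%) in each line. GRAMD1B, which moves plasma membrane cholesterol to the endoplasmic reticulum, fell by 2.88 on the log2 scale in the ASCL2 line (adjusted p = 6.31e-10) and was at -0.17 in the other, not called. The lipoprotein receptor LRP8 rose by 0.24 and 1.01, and the lysosomal cholesterol exporter NPC1 by 0.89 and 0.55. Among 9 tested LXR targets and receptors, genes of the response to sterol excess, 2 were up and 4 down with the ASCL2 hairpin. With the other, 2 were up and 1 down. All of these counts but the 4 down lie near the share over all genes. NR1H2 (LXR beta) rose by 0.90 and 0.56, and the lysophospholipid acyltransferase LPCAT3 fell by 0.28 and 0.86.

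Of 19 tested other lipogenic enzymes and cofactor suppliers, 8 were up and 2 down with the ASCL2 hairpin, and 5 up and 2 down with the other, where over all genes 13.9% and 12.7%, and 9.54% and 9.03%, were. Both counts of genes down are near that share. Among them the malic enzyme ME1, which makes NADPH, rose by 0.94 and 0.70, IDH1 rose by 0.30 and 0.49, and the acyl-CoA synthetase ACSL5 rose by 1.04 in the ASCL2 line. Of 11 genes that draw on farnesyl diphosphate for other products, 4 were up and 0 down with the ASCL2 hairpin, and 1 up and 1 down with the other. The last 2 counts are near the share over all genes. In the WiNTRLINC1 line PDSS2, of ubiquinone synthesis, fell by 0.68. FNTA, a farnesyltransferase subunit, rose by 0.37 and COQ2 by 0.41 in the ASCL2 line. Of 14 genes of glycerolipid synthesis 2 were up and 3 down with the ASCL2 hairpin, among them LPIN2 (-0.70) and PLIN2 (-0.65), and 3 up and 0 down with the other, with CDS2 at 0.32 and 0.39. The 2 up with the ASCL2 hairpin are near the share over all genes. Of 18 fatty acid oxidation genes 4 were up and 3 down with the ASCL2 hairpin (PPARA at -1.05, ACADS at -0.75, HADHB at 0.65), and 3 up and 3 down with the other, each within a few genes of the share over all genes. The median log2 fold changes of these 7 lists ran from -0.28, for the LXR list, to 0.24, for cholesterol transport, in the ASCL2 line, and from 0.04 to 0.24 in the WiNTRLINC1 line.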

How the data were processed

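RNA from 8 libraries was analysed as deposited. The authors' values are a score: whole numbers per gene that have the form of read counts scaled per library and rounded, so no count model was used. Per the submitters' processing notes the tools were cutadapt, TopHat2 2.0.9, Cufflinks and DESeq, and the builds named are hg19, GRCh37 and mm9, with no role given. Neither the counting program nor its strand setting is stated in those notes. Values were tested as log2(value + 1) with limma 3.58.1 in R 4.3.3, with a mean-variance trend, on all 8 libraries in 4 groups (4 residual and 10.5 prior degrees of freedom), keeping genes that reached 10 in 2 or more libraries. P-values were adjusted over 22100 genes by Benjamini-Hochberg. The fit was tested on simulated data.

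All members and ASCL2 were named, and of each other list up to 3 called genes with the smallest adjusted p in either line, of which some are not reported here. Members and lists were chosen with earlier results of these data known. Alternatives covered the pseudocount, filter, trend, robust fitting, scaling, replicate block, each line alone and each library left out. Same-numbered libraries did not deviate together (correlation -0.052 for the ASCL2 hairpin and 0.105 for the other), so the numbers were not taken as pairs.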

Additional observations from a re-analysis of the deposited data

Results flagged for a closer look

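For 17 members the difference between the responses of the lines passed the test itself (limma, adjusted p under 0.05), each given here as the WiNTRLINC1 line response minus the ASCL2 line response on the log2 scale. In the sterol branch these were HMGCS1 (-0.75), MVD (0.45), FDFT1 (0.48), SQLE (0.51), LSS (0.44) and TM7SF2 (0.62). MSMO1 (-1.59), NSDHL (0.42), EBP (0.65), DHCR7 (-0.46), INSIG1 (0.66) and STARD4 (0.58) complete that branch. In the fatty acid branch they were ACSS2 (0.44), FASN (-0.78), ELOVL5 (-0.47), ELOVL6 (0.52) and FADS2 (0.82). EBP and FADS2 were called lower in the ASCL2 line and higher in the WiNTRLINC1 line, and FASN the reverse. None of these genes kept both calls without the mean-variance trend. There EBP was called in neither line (limma adjusted p = 0.056 and 0.192). The FADS2 fall and the FASN rise in the ASCL2 line were also not called (0.106 and 0.188). Of the 17 differences, those of MSMO1, HMGCS1 and FADS2 were also called without that trend.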

How the results depend on the processing

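Of 2240 member values recomputed under alternatives, 2078 kept their direction and side of the threshold, 116 lost a call, 22 gained one, 24 moved and 0 reversed. The number of fatty acid genes called lower in the ASCL2 line (1) became 2 with a pseudocount of 8, a filter at 50, robust fitting or equal totals, and 0 with no filter or no mean-variance trend. In the WiNTRLINC1 line that number (2) became 1 with no filter and 1 with no trend, and for the difference of the responses (2) it became 1 with no filter and 0 with no trend. Without the trend, 1 sterol gene was lower in the ASCL2 line in place of 2, and 3 members differed between responses in place of 17, with 0 sterol and 1 fatty acid gene higher in place of 9 and 3. With equal totals the ASCL2 line medians were 0.34 (sterol) and 0.27 (fatty acid), and the sterol median of the difference 0.32. Leaving out 1 library at a time gave 0 to 1 fatty acid genes lower in the ASCL2 line, 1 to 2 in the WiNTRLINC1 line and 1 to 2 for the difference, and 0 to 1 sterol genes lower in the WiNTRLINC1 line. It gave fatty acid medians of 0.28 to 0.35 in the ASCL2 line and -0.71 to -0.63 between untreated lines. The sterol medians were 0.56 to 0.60 in the WiNTRLINC1 line, 0.25 to 0.34 for the difference and -0.43 to -0.36 between untreated lines. The cause of these shifts was not tested. Where a library was left out, the lone one was assumed to vary like the other groups. Fitting each line alone gives no difference of responses or of untreated lines. All genes called ran from 3410 to 6101 in the ASCL2 line and from 1873 to 4278 in the WiNTRLINC1 line.

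With the replicate number as a block, 2 fatty acid genes were called lower in the ASCL2 line in place of 1, SREBF1 being the gene gained (adjusted p = 0.0397), and members called numbered 23, 26, 17 and 25 for the ASCL2 line, the WiNTRLINC1 line, the difference and the untreated lines. The numbers share no stated culture or day.

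Depth behind the scaled values is not known exactly, so no counting error is given. Precision is limited by the 2 libraries per group.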
